A study of Homo sapiens with 2 samples.

Results

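The 46 genes described here encode heat shock factors, the HSP70 and HSP110 chaperones, small heat shock proteins, the mitochondrial chaperonin, HSP90 with its cochaperones, J-domain (DNAJ) proteins, BAG proteins and the cytosolic chaperonin. They were picked by family and name, with earlier results of these data known, and the rule that picks them uses no measured value. In 1 gene expression comparison, a log2 signal could be assigned to 40 of the 46 genes, of 13221 detected genes in all. Cells of A549, a human lung adenocarcinoma line, carried either the LV5 lentiviral control vector (A549-LV5) or LV5 with the full-length sequence coding for transcript variant 1 of ZNF300, a zinc finger gene (A549-ZNF300). Both were grown in ordinary culture without a drug, collected with trypsin and measured as total RNA on 1 Affymetrix HG-U133 Plus 2.0 array each. No clone, passage or time after infection was given in the sources used here. Since each condition has 1 array, no replicate error, test or p-value could be had, and the small number of arrays limits how precise every value is. The comparison asks which transcripts differ between cells with and without the ZNF300 vector.

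Newly made and damaged proteins are kept from aggregating by chaperones. HSP70 proteins bind short hydrophobic stretches in a cycle driven by ATP, which DNAJ proteins start by delivering clients and stimulating ATP hydrolysis, and which BAG and HSP110 proteins reset by releasing ADP. Clients can pass on to HSP90, which matures kinases and steroid receptors with cochaperones, or to the ring-shaped cytosolic chaperonin, which folds actin and tubulin. Under heat or other protein damage the transcription factor HSF1 binds alternating GAA units in promoters, called heat shock elements, and raises many of these genes together. Tumour cells commonly depend on this system.

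The promoters with the longest such element are shown first, because they tell which genes carry the letters that HSF1 binds. Promoters came from RefSeq (GRCh38.p14), each with 250 bases before and 50 bases after the annotated start, and 40 of the 46 genes had 1. The element searched was GAANNTTCNNGAA or TTCNNGAANNTTC, that is 3 alternating units in 13 letters. The second is the complement of the first, so that both strands were covered. It was found in 4 of the 40 promoters (10%), and in 0.487% of all 27305 promoters of that length. The shorter form with 2 units, GAANNTTC or TTCNNGAA, which lies within the longer form, was in 12 of the 40 (30%) and in 13.7% of all promoters. A stretch of 60 bases is printed for each of the 4 genes, with the matched letters in capitals.
HSPA8, chr11:123062156-123062215, minus strand: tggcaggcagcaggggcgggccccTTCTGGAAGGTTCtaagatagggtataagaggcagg
CHORDC1, chr11:90223069-90223128, minus strand: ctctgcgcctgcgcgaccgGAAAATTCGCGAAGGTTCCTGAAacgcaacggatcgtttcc
DNAJA1, chr9:33025229-33025288, plus strand: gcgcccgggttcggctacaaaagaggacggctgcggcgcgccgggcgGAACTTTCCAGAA
DNAJB6, chr7:157336849-157336908, plus strand: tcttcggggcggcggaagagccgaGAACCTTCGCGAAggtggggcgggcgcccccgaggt

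The element began 55 bases before the start of HSPA8, with another 230 bases before it, 60 bases before that of CHORDC1, 131 bases before that of DNAJB6 and 3 bases after that of DNAJA1. In CHORDC1 overlapping matches made a single longer run. A match describes letters in this window only, and a promoter without one may carry an element elsewhere or with other letters. The first genes of the heat shock response, HSPA1A and HSPA1B, each held the 2-unit form only.

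The labels were checked before the genes were compared. ZNF300 itself had a log2 signal of 4.16 in A549-LV5, below the array median of 6.14, and 8.91 in A549-ZNF300. Its log2 ratio was 4.75, or 2.77 when the low signal is raised to the median. All log2 ratios are A549-ZNF300 minus A549-LV5. The defining markers of A549 went against the label of A549-LV5 in part. Of 13 detected A549 markers, 12 were higher in A549-ZNF300, 9 by 2-fold or more, and the log2 ratios of the 13 had a median of 2.06. KRT19, a keratin of simple epithelium, was 2.29 in A549-LV5 and 11.08 in A549-ZNF300, and ALDH3A1, an aldehyde dehydrogenase abundant in A549, was 1.93 and 13.34. Both were below the array median in A549-LV5, whereas the NRF2 target NQO1 was 14.78 and 14.84 in the respective arrays. Of markers of other cells, 2 of 5 leukocyte, 1 of 3 endothelial and 4 of 7 fibroblast genes were detected, and PTPRC, CDH5, VWF, COL1A2 and PDGFRB were not detected in either array. Of the 4 fibroblast genes 3 were at least 2-fold higher in A549-ZNF300, with a median over the 4 of 3.19. COL1A1 was 7.90 and 10.45, while COL3A1 (2.45 and 6.30) and LUM (-0.26 and 6.30) were below the median in A549-LV5 and just above it in A549-ZNF300. CD14, a leukocyte gene, was 6.73 and 7.74. The part of these marker differences in the chaperone values was not tested. Spiked control probe sets lay between -0.16 and 0.16, and the 3′ to 5′ signal ratio of GAPDH was 1.01 in A549-LV5 and 0.986 in A549-ZNF300, and that of ACTB was 1.98 and 1.62.

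A gene counted as detected when a probe set listing it alone reached its array's median over all probe sets in either array, and its value came from the detected probe set with the highest mean signal. All 40 genes with such a probe set were detected. Of the other 6, HSPA1A, HSPA1B, HSPA8 and TCP1 were measured only by probe sets that list further genes, and HSF2 and AHSA1 were listed by none and were not analysed here. Most of the 40 genes had strong signals that differed little between the arrays. In both arrays 34 of them were above the 75th percentile of all probe sets (8.78 in A549-LV5 and 8.72 in A549-ZNF300), and their median mean signal was 12.1 against 9.34 over all detected genes. Signals of different probe sets do not rank RNA levels, and in bulk RNA fewer cells of a type and less RNA per cell cannot be told apart.

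In A549-ZNF300, 27 of the 40 genes were higher and 13 were lower. The log2 ratios had a median of 0.27 against -0.06 over all detected genes, of which 46.6% were higher. Of the 40, CCT4, CCT8, DNAJA2, DNAJA3, DNAJB4 and HSP90AA1 changed sides under at least 1 other scaling of the arrays, all from values within 0.10 of 0. At least 2-fold higher were 6 genes (15%), against 13.6% of all detected genes, and at least 2-fold lower were 3 (7.5%), against 15.4%. A share near that of all genes is no result about the chaperones. The 6 genes were DNAJC12, HSPB8, BAG1, HSPA14, CRYAB and DNAJA1, and the 3 were DNAJB5, DNAJB2 and BAG3. Just under the 2-fold line were CHORDC1 at 0.99, CCT6A at 0.98 and HSF1 at -0.94. Within 0.5 of 0 were 22 of the 40 genes, against 5936 of the 13221 detected genes. The median size of the log2 ratio, without its sign, was 0.42 for the chaperone genes and 0.57 for all detected genes. The chaperone genes had stronger signals (median 12.1 against 9.34) and were not compared with genes of like signal. The smaller size is thus no result about the chaperones.

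**Figure D1:**
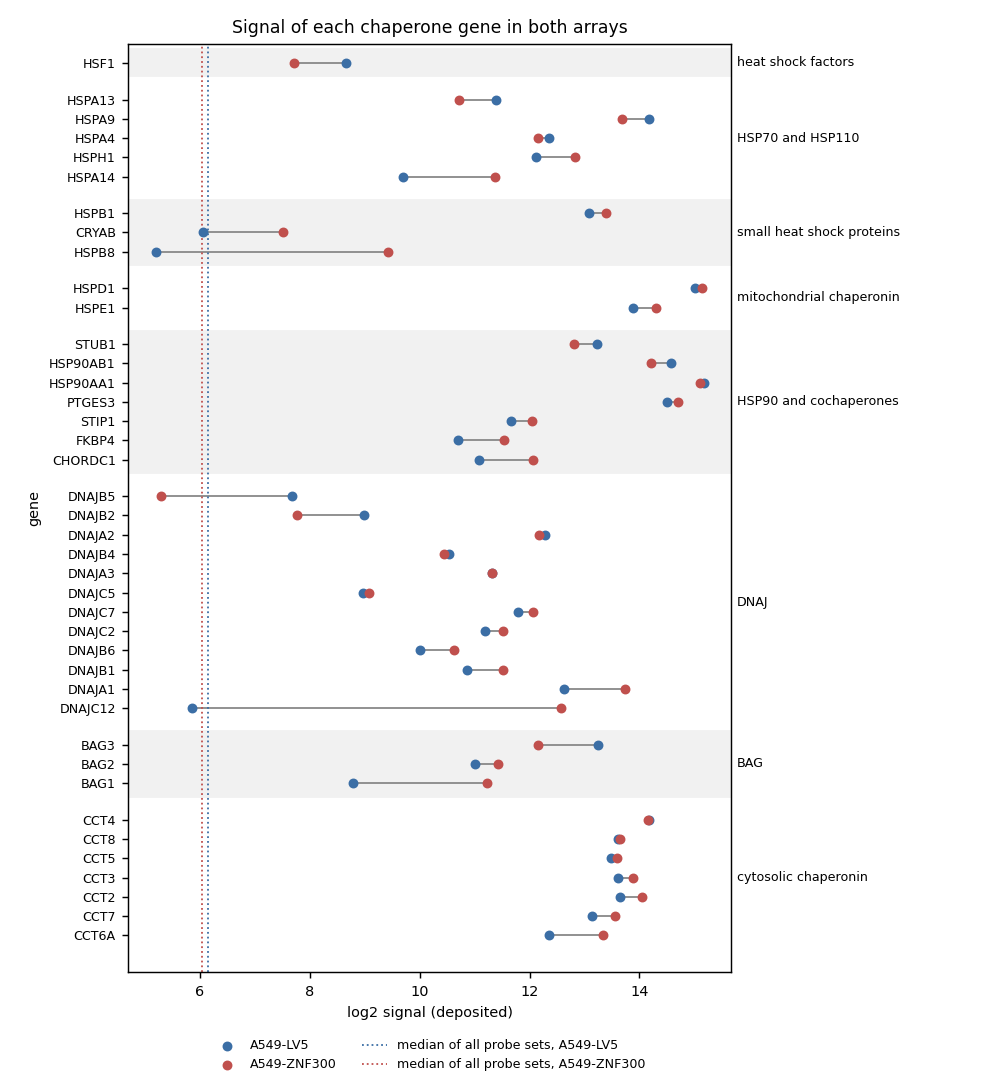
Deposited log2 signal (x axis) of the 40 chaperone and heat shock genes (y axis, by family) in A549-LV5 (blue) and A549-ZNF300 (red), 1 array each, with a line joining both values of a gene and dotted lines at the medians of all probe sets, 6.14 and 6.03. Most pairs lie close together at high signal, and the longest line is that of DNAJC12, from 5.86 to 12.57.

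HSF1, the main transcription factor of the heat shock response, was lower in A549-ZNF300. Its log2 signal was 8.65 in A549-LV5 and 7.71 in A549-ZNF300, which makes -0.94, or 1.92-fold lower. A further probe set gave 7.20 and 6.44, a ratio of -0.76, so both pointed the same way. Genes that HSF1 is known to induce did not share one direction. HSPA1A and HSPA1B, the stress-inducible HSP70 genes, are nearly identical and share 3 probe sets. These gave 14.46 in A549-LV5 and 13.90 in A549-ZNF300 (-0.56), 13.34 and 12.66 (-0.69, HSPA1L also listed), and 12.94 and 12.29 (-0.64). All 3 were lower in A549-ZNF300 by less than 2-fold, and the shares of the single genes cannot be told apart. DNAJB1, the J-domain partner induced together with them, was on the other side, with 10.86 and 11.51, a ratio of 0.65, and 0.47 from its other probe set. HSPH1, an inducible HSP110, was 12.12 and 12.82 (0.70), with further probe sets at 0.18 and 0.90. BAG3, another gene that HSF1 induces, was among the genes at least 2-fold lower.

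Of the 4 genes with the long element in the promoter, DNAJA1 (1.12) and CHORDC1 (0.99, and 0.34 in a shared probe set) were higher. HSPA8 was slightly lower in all 4 of its shared probe sets (-0.12 to -0.07). DNAJB6 had probe sets of opposite sign, 0.60 from the one that lists it alone and -1.66 and -1.78 from those it shares. The 31 detected chaperone genes whose promoter lacked it divided into 20 higher and 11 lower, with a median of 0.12. Outside the chaperones, 37 detected genes with the long element divided into 21 higher and 16 lower, with a median of 0.09. These are counts over few genes and were not tested.

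The HSP70 and HSP110 family had 5 measured genes, 2 higher and 3 lower, and its log2 ratios had a median of -0.21. HSPA14, an HSP70-like protein that works on ribosomes together with DNAJC2, was highest in ratio. It had 9.70 in A549-LV5 and 11.37 in A549-ZNF300, which is 1.67 higher on the log2 scale or 3.19-fold, and was called present in both arrays by the detection calls of the authors. Its other probe sets gave 8.58 and 9.68 (1.10) and 8.49 and 9.43 (0.94), all higher in A549-ZNF300. DNAJC2, its J-domain partner in human cells, was 11.18 and 11.51, a ratio of 0.33. HSPA8, the constitutive HSP70 of the cytosol, was level in both arrays. All 4 of its probe sets also list SNORD14C and SNORD14D, small nucleolar RNAs, and gave 14.79 to 14.91 in A549-LV5 and 14.72 to 14.80 in A549-ZNF300, with ratios of -0.12 to -0.07. HSPA9, the HSP70 of the mitochondrial matrix, was 14.18 and 13.68 (-0.51), and its other detected probe sets gave -0.66 and -0.65. HSPA13, a microsomal HSP70 relative, was 11.39 and 10.72 (-0.68), with -0.54 from the other probe set. HSPA4, an HSP110-type exchange factor, was 12.36 and 12.15 (-0.21), and its other probe sets ran from -0.39 to 0.35, so its direction was not settled. The median of the family was 0.01 when the median over the probe sets of each gene was used.

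Small heat shock proteins bind unfolding proteins without ATP, and all 3 genes were higher in A549-ZNF300. HSPB1, known as HSP27, was 13.08 in A549-LV5 and 13.39 in A549-ZNF300, a difference of 0.30. HSPB8, which acts with BAG3 in the autophagy of damaged proteins, had 5.19 in A549-LV5, below the array median and called absent, and 9.42 in A549-ZNF300, called present. The nominal log2 ratio of 4.22 became 3.27 with the low signal raised to the array median, that is at least 9.67-fold higher. Its other probe set was 6.26 and 6.51, a ratio of 0.25, so the difference rested on 1 of 2 probe sets. CRYAB, alphaB-crystallin, had 6.06 in A549-LV5, below the array median, and 7.50 in A549-ZNF300. Its single probe set gave 1.44, or 1.36 against the median, at least 2.57-fold higher. It is missing from the authors' table of probe sets at least 2-fold apart and not called absent in both arrays, so it has no detection call. Why it was left out is not stated. The difference of CRYAB is uncertain because it rests on 1 probe set without a detection call.

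BAG proteins release ADP and clients from HSP70, and the 3 members diverged. BAG1, which links HSP70 to the proteasome and to survival signalling, was 8.79 in A549-LV5 and 11.23 in A549-ZNF300, which is 2.44 higher on the log2 scale or 5.42-fold, and was called present in both. Its other probe sets gave 8.76 and 11.15 (2.39) and 7.51 and 8.97 (1.45), all at least 2-fold higher. BAG3 was 13.25 and 12.16, a ratio of -1.09 or 2.14-fold lower, from its single probe set, called present in both. Centring the arrays on their medians brought BAG3 to -0.99, just inside the 2-fold line. BAG2, which inhibits the ubiquitin ligase STUB1, was 11.01 and 11.42 (0.41), with other probe sets at -0.54 and 0.07. So BAG1 and BAG3 lay on opposite sides of 0, and the autophagy partners HSPB8 and BAG3 did so too.

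DNAJ proteins choose the clients of HSP70, and the 12 genes held both the highest and the lowest ratio of all. By the probe sets that list them alone, 8 were higher in A549-ZNF300 and 4 lower. On each side 2 were at least 2-fold apart (16.7%), near the 13.6% higher and 15.4% lower of all detected genes. The 8 include DNAJB6, which its shared probe sets place more than 2-fold lower. The median was 0.19, or 0.12 without DNAJC12, and -0.10 for the 7 genes left without probe sets of the _x_at and _s_at types, which can bind several transcripts. DNAJC12, a J-domain protein known to assist the aromatic amino acid hydroxylases, was near background in A549-LV5 and bright in A549-ZNF300. It had 5.86, called absent, and 12.57, called present, and against the array median it was at least 86.2-fold higher, a log2 ratio of 6.43. Its other probe sets gave 5.76 and 11.40 (5.64) and 1.34 and 7.96 (6.61), so all 3 were below the median in A549-LV5 and well above it in A549-ZNF300. DNAJA1, a general J-domain partner of cytosolic HSP70, was 12.62 and 13.74, a ratio of 1.12 or 2.17-fold. Its other probe set was 11.61 and 12.96 (1.35), and DNAJA1 was called present in both arrays.

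On the lower side, DNAJB5, a less studied relative of DNAJB1, was 7.67 in A549-LV5, called present, and 5.30 in A549-ZNF300, below the array median and called absent. Against that median the log2 ratio was -1.64, at least 3.11-fold lower. The other probe set was 6.41 and 2.24, a nominal ratio of -4.16, and pointed the same way, but it too is missing from the authors' table and has no detection call. DNAJB2, which is enriched in neurons and binds ubiquitin, was 8.98 and 7.76, a ratio of -1.22 or 2.33-fold lower, from its single probe set, called present in both. The general partner DNAJA2 (12.27 and 12.18), the mitochondrial DNAJA3 (11.32 in both) and DNAJB4 (10.53 and 10.44) lay between -0.10 and 0.00. DNAJC5, the cysteine string protein of secretory vesicles, was 8.96 and 9.08 (0.12). DNAJC7, which also binds HSP90, was 11.80 and 12.06 (0.27), but its other detected probe set gave -0.72.

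DNAJB6, a suppressor of protein aggregation, showed how the choice of probe set can decide a direction. The probe set that lists it alone was 10.01 in A549-LV5 and 10.62 in A549-ZNF300, a ratio of 0.60. The other probe sets, which list TMEM135 and DNAJB6, had stronger signals of 13.06 and 11.39 (-1.66) and 12.95 and 11.17 (-1.78). TMEM135 alone was 11.32 and 10.95 (-0.37). No direction is given for DNAJB6.

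**Figure D2:**
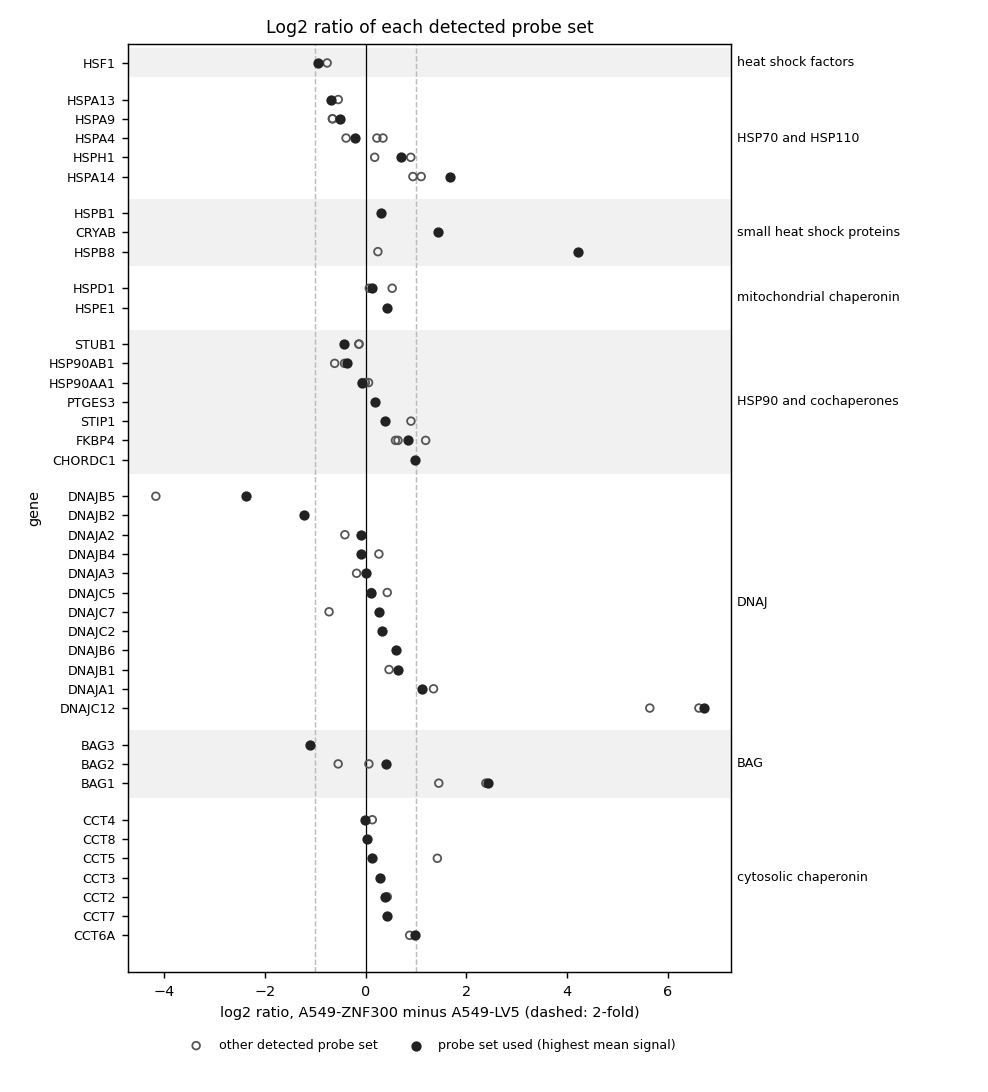
Log2 ratio (A549-ZNF300 minus A549-LV5, x axis) of each detected probe set that lists 1 chaperone gene alone (y axis, by family), with the probe set used as a filled point and the others as open points, and dashed lines at 2-fold. All 3 probe sets of DNAJC12 and of BAG1 lie beyond the upper line, whereas the 2 of HSPB8 lie at 4.22 and 0.25.

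HSP90 and its cochaperones included no gene at least 2-fold apart. Of 7 genes, 4 were higher and 3 lower, of which HSP90AA1 turned positive with median centring and with quantile normalization, and the median log2 ratio was 0.19. HSP90AA1, the inducible HSP90, was 15.17 in A549-LV5 and 15.11 in A549-ZNF300 (-0.07), with 3 further probe sets between -0.06 and 0.06. HSP90AB1, the constitutive HSP90, was 14.57 and 14.21 (-0.37), with -0.61 and -0.42 from further probe sets. The inducible gene was thus level and the constitutive one lower in each of its 3 probe sets. The 4 genes higher in A549-ZNF300 were CHORDC1, FKBP4, STIP1 and PTGES3. CHORDC1, which binds HSP90, was 11.08 and 12.07 (0.99), and 9.32 and 9.66 (0.34) in a probe set shared with another gene. FKBP4, the immunophilin of steroid receptor complexes, was 10.69 and 11.54 (0.85, others 0.59 to 1.19). STIP1, which joins HSP70 to HSP90, was 11.66 and 12.05 (0.39, other 0.90). PTGES3, the p23 cochaperone, was 14.51 and 14.70 (0.19). STUB1, the ubiquitin ligase that sends clients of both chaperones to the proteasome, was 13.23 and 12.81 (-0.42), with further probe sets at -0.13 and -0.13.

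The cytosolic chaperonin is a double ring of 8 different subunits, of which 7 were measured by probe sets of their own. As deposited, 6 were higher and 1 lower, around a median of 0.28 and in a range of 0.00 to 0.98, while CCT8 turned to -0.04 under quantile normalization and CCT4 to 0.10 with median centring. CCT6A stood highest, with 12.35 in A549-LV5 and 13.33 in A549-ZNF300 (0.98, other probe set 0.88). CCT7 was 13.14 and 13.56 (0.42), CCT2 was 13.65 and 14.04 (0.39, other 0.43), and CCT3 was 13.61 and 13.89 (0.28). CCT5 was 13.48 and 13.60 (0.12), CCT8 was 13.62 and 13.65 (0.03) and CCT4 was 14.17 in both arrays (0.00). A weaker probe set of CCT5 gave 7.98 and 9.40 (1.42). TCP1, the remaining subunit, shares its probe sets with SNORA29, and they gave 13.60 and 13.27 (-0.34), 10.60 and 11.24 (0.65), and 10.27 and 11.11 (0.84), with no common sign. The probe sets of CCT5 alone were thus further apart than the 7 subunits were from each other. The mitochondrial chaperonin, made of HSPD1 and its lid HSPE1, was close to level. HSPD1 was 15.02 and 15.14 (0.12, others 0.07 and 0.53), and HSPE1 was 13.89 and 14.31 (0.42).

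In the absence of replicate arrays, probe sets of the same gene give the only repeated measurement, which shares the RNA and the array. Of 28 chaperone genes with 2 or more detected probe sets, 21 had the same sign in all. Of the 9 genes at least 2-fold apart, 6 had several, and in all 6 the sign was the same. Among these, HSPB8 agreed in sign only, at 4.22 and 0.25, and the second probe set of DNAJB5 is missing from the authors' table. The share with a common sign was not worked out over all genes, so these counts are no result about the chaperones. The median SD between probe sets of a gene was 0.24 for the chaperone genes and 0.35 over 6607 genes. Differences such as those of DNAJC12, BAG1, HSPA14 and DNAJA1 exceeded 0.35 in every detected probe set, and 15 of the 40 genes stayed within it.

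**Figure D3:**
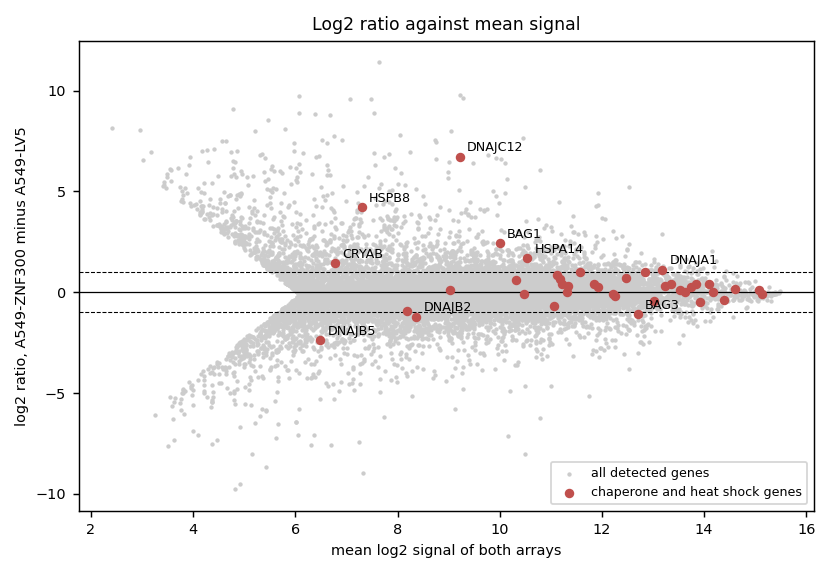
Log2 ratio (A549-ZNF300 minus A549-LV5, y axis) against the mean log2 signal of both arrays (x axis) for all 13221 detected genes (grey) and the 40 chaperone and heat shock genes (red), with dashed lines at 2-fold and names at genes beyond them. Chaperone genes sit mostly on the right near 0, and DNAJC12, HSPB8, CRYAB and DNAJB5, each below the array median in 1 array, sit further left.

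Chaperones of another compartment and subunits of the proteasome, which degrades what is not folded, were read beside the cytosolic chaperones. Of 15 chaperones of the endoplasmic reticulum, which fold secreted proteins, 14 were lower, 5 of them by 2-fold or more, around a median of -0.78. HSPA5, the HSP70 of that compartment, was 15.18 in A549-LV5 and 13.94 in A549-ZNF300 (-1.24), HYOU1, its exchange factor, was 12.10 and 10.63 (-1.47), and CRELD2, a stress-induced secreted protein, was 12.38 and 10.85 (-1.53). Of 27 proteasome subunits, 22 were higher and 2 at least 2-fold, PSMC3 at 1.41 and PSMD2 at 1.02, with a median of 0.42. The median of the 40 chaperone genes, 0.27, lay between both. These medians were not tested against each other.

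Relatives of the chaperones outside the 46 genes were read for comparison. A list of further HSP70 genes and HSPBP1, an exchange factor of HSP70, had 6 genes, all detected and 5 of them higher. In it HSPA2, an HSP70 known from the testis, was 10.21 and 12.51 (2.29). Of the 5, HSPA12B was below the array median in A549-LV5, with 0.02 against it. HSPA4L was at 0.14, but its other detected probe set gave -0.74. HSPA6, which is strictly heat-inducible, was 6.22 in A549-LV5 and 5.76 in A549-ZNF300, near the array median in both. Of 28 further DNAJ genes, 27 were detected, 8 higher and 19 lower, with a median of -0.35. Nominally 2 were at least 2-fold higher (7.41%) and 5 lower (18.5%), against 13.6% and 15.4% of all detected genes. Of these, DNAJC15 and DNAJC28 were below the array median in 1 array, with 0.13 and -0.33 against it. Neither was thus shown to be 2-fold apart. The median of the 12 DNAJ genes above was 0.19, which turned to -0.10 without _x_at and _s_at probe sets. Some of the further DNAJ genes were also counted among the endoplasmic reticulum chaperones, so the lists overlap. Among the further DNAJ genes, DNAJC22 was 5.73, below the array median, and 9.31, a ratio of 3.16 against that median, and DNAJC4 was 10.27 and 8.67 (-1.60). By the probe sets used, none of 12 detected further HSP90 cochaperones was at least 2-fold apart. Their median was -0.11, and PPP5C, a phosphatase bound to HSP90, stood highest at 0.83. Other probe sets reached 4.48 for FKBP5, against -0.32 from the one used, and 1.54 for SUGT1, against 0.12, so no direction is given for FKBP5. Of 7 detected further genes that HSF1 is known to induce, 5 were higher and 2 lower, none at least 2-fold, with JMJD6 at 0.47 and ZFAND2A at 0.45.

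**Figure D4:**
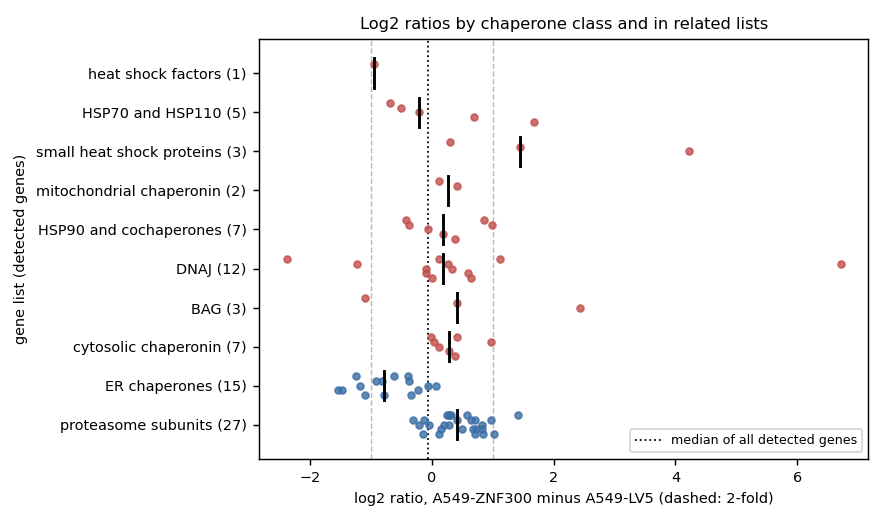
Log2 ratio (A549-ZNF300 minus A549-LV5, x axis) of each detected gene (points, spread vertically for view) in the chaperone families (red) and in 2 related lists (blue), with the number of genes in brackets, a bar at each median, a dotted line at the median of all detected genes (-0.06) and dashed lines at 2-fold. The endoplasmic reticulum chaperones centre on -0.78 and the proteasome subunits on 0.42, with most chaperone families between them.

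Whole stretches of chromosomes differed between the arrays, so each gene was set beside its neighbours, the 20 detected genes on either side in RefSeq order. Neighbour medians ran from -0.76 to 0.54, and 26 of the 40 chaperone genes had the sign of their neighbours, as had 8 of the 9 at least 2-fold apart. The share over all detected genes was not worked out, so neither count is a result about the chaperones. Among the 8 are DNAJC12, HSPB8 and DNAJB2, whose neighbour medians were too near 0 for their sign to mean much. BAG1 and DNAJA1 lie on chromosome 9, where 67.3% of 535 other genes were higher and their median was 0.34. The neighbours of BAG1 had a median of 0.54 and those of DNAJA1 of 0.49, against 2.44 and 1.12 for the genes. HSPA14 on chromosome 10 had neighbours at 0.50 against its own 1.67. DNAJB5, also on chromosome 9, was the exception, at -2.37 with neighbours at 0.46. DNAJC12 (0.05), HSPB8 (0.05) and DNAJB2 (-0.04) had neighbours near 0, so that their differences were not shared by the stretch around them.

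On chromosome 6, where only 26.5% of 706 other genes were higher, HSP90AB1 had neighbours at -0.36 and was itself at -0.37. BAG2, on the same chromosome, was 0.41 with neighbours at -0.70. DNAJC5 on chromosome 20 was 0.12 with 28 neighbours at -0.76. By the probe sets used, the ratio of HSP90AB1 was thus near that of its surroundings, and that of DNAJC5 was not. The other probe sets of HSP90AB1 were lower, at -0.61 and -0.42. For BAG2 too only the probe set used is compared here. Its other probe sets were at -0.54, near the neighbours, and 0.07, so no verdict is given for BAG2. Copy number was not analysed here.

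**Figure D5:**
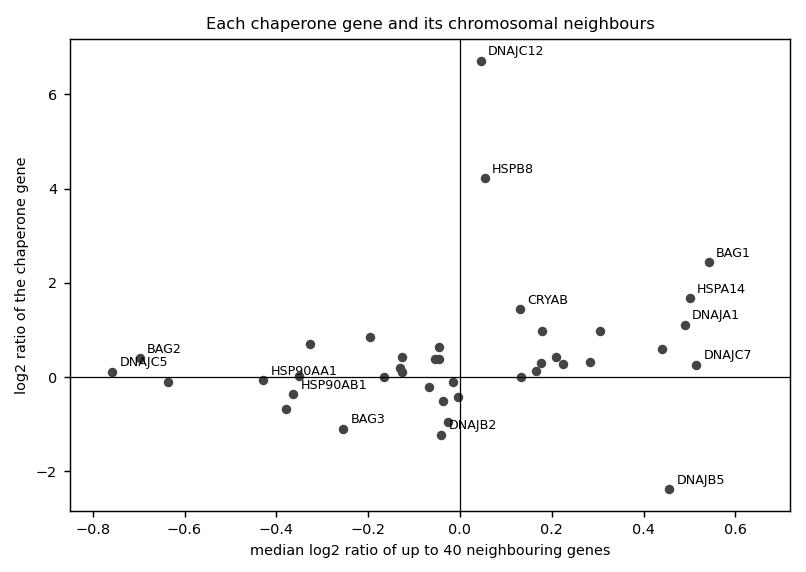
Log2 ratio of each of the 40 chaperone genes (A549-ZNF300 minus A549-LV5, y axis) against the median log2 ratio of up to 40 neighbouring genes on its chromosome (x axis), with lines at 0 and names at selected genes. BAG1, HSPA14 and DNAJA1 lie at the upper right, DNAJB5 at the lower right at -2.37, and DNAJC12 and HSPB8 high above neighbours near 0.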

How the data were processed

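The authors deposited log2 signals of 54675 probe sets, normalized before deposit. The submitters' notes name MAS5 and affy without a version, the methods name SCAN/UPC with a UPC filter, and which of them made these values is not stated. The deposited table of 8187 probe sets repeats the signals and adds the authors' detection calls (present or absent). All of its probe sets were at least 2-fold apart, and none was called absent in both arrays. Its fold and regulation columns were not used, and 0 other per-sample columns were left out. Of the probe sets, 41097 list 1 gene, 1801 several and 11777 none in the array annotation. Only the first gave gene values. Every chaperone gene was named by rule, and of related chaperone lists at most the 3 largest ratios. TMEM135, FKBP5, SUGT1, DNAJC15, HSPA4L and the markers of A549 and other cells were named after their values were seen. The genes and lists were chosen with earlier results of these data known. RefSeq (GRCh38.p14) gave gene order and promoters. Signals raised to the array median gave the bounds. Alternatives were 3 scalings, 3 filters, 2 probe set rules, an offset of 16 on linear signals, the raised signals, and thresholds of 1.5-fold and 3-fold. Counting was tested on simulated data, with Python 3.11.15, pandas 2.3.3, numpy 2.4.6 and matplotlib 3.10.9.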

Additional observations from a re-analysis of the deposited data

How the results depend on the processing

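The median log2 ratio of the 40 chaperone genes ran from 0.12 to 0.38 over the alternatives, that of the cytosolic chaperonin from 0.20 to 0.41 and that of HSP90 with cochaperones from 0.09 to 0.29. That of HSP70 and HSP110 ran from -0.39 to 0.01, positive only with the median over probe sets, and that of DNAJ from -0.10 to 0.30, negative only without _x_at and _s_at probe sets. The 6 genes at least 2-fold higher became 3 of 37 with signals at the median required in both arrays, which leaves out dim probe sets (9.31% of all genes there), and 12 at 1.5-fold (22.5%). The 3 genes at least 2-fold lower became 5 at 1.5-fold (26.5% of all genes) and 1 at 3-fold (7.59%). Centring on array medians moved the median of all detected genes from -0.06 to 0.04, and gave 8 higher and 2 lower chaperone genes, against 15.3% and 13.4% of all genes. Of 421 values of single genes under alternatives, 407 moved by less than 0.35, the median SD between probe sets, 14 moved by more, and 14 changed sign, each of a gene under 2-fold. Centring adds the same amount to every gene, and the filters and raised signals leave most bright genes as they were. Many of the 407 could thus hardly move, and the count is no measure of robustness. HSPB8 fell to 0.25 without _s_at probe sets. Keeping probe sets of several genes, an alternative chosen after seeing the data, took DNAJB6 to -1.66. No paired analysis was possible because each condition has 1 array and no replicate number. Signals below the array median in 1 array limit DNAJC12, HSPB8, CRYAB and DNAJB5 to bounds. Outside the 40, the same holds for the chaperone relatives DNAJC22, DNAJC15, DNAJC28, HSPA12B, HSPA6 and HSPB6.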

Other observations

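Chaperones and proteases of the mitochondrion were mostly lower in A549-ZNF300, on the other side from the mitochondrial chaperonin. Of 8 detected genes, 7 were lower and 1 higher, around a median of -0.37. CLPP, the proteolytic subunit of the matrix protease ClpXP, was 11.13 in A549-LV5 and 10.07 in A549-ZNF300 (-1.07), GRPEL2, an exchange factor of HSPA9, was 11.51 and 10.70 (-0.81), and LONP1, a matrix protease, was 10.78 and 10.32 (-0.46). The HSP70 of the matrix, HSPA9, was on the same side at -0.51, and HSPD1 and HSPE1 were at 0.12 and 0.42.

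Prefoldin hands unfolded actin and tubulin to the cytosolic chaperonin. Of its 5 measured subunits, 4 were lower and 1 higher, with a median of -0.16. PFDN2 was 13.03 and 11.98 (-1.05), and VBP1 was 12.49 and 12.91 (0.42). Of the other BAG genes, BAG6 was 11.69 and 10.71 (-0.98), whereas BAG4 and BAG5 were at 0.38 and 0.37. Of 7 further small heat shock proteins 1 was detected, HSPB6, with 5.03 in A549-LV5, below the array median, and 6.51 in A549-ZNF300, a ratio of 0.37 against that median. Of the relatives of HSF1, HSF2BP was 6.30 and 7.92 (1.62) and HSBP1, which binds HSF1, was 13.30 in both arrays (0.00). Each of these values rests on 1 array per condition.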
